A study of Mus musculus with 24 samples.

Results

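The genes described here are Il10, which encodes the anti-inflammatory cytokine IL-10, and 6 genes of its signalling. Il10ra and Il10rb encode the receptor chains, Stat3 the transcription factor that the receptor activates, and Socs3 a feedback inhibitor that is a STAT3 target. Nfil3 encodes a transcription factor that IL-10 induces in macrophages, and Il4ra encodes the IL-4 receptor alpha chain, which IL-10 raises in macrophages. Members were all probe sets whose annotation gives only 1 of these 7 symbols, which made 17 of the 45033 probe sets with values. Il10 had 1 probe set, Il10ra 3, Il10rb 2, Stat3 4, Socs3 3, Nfil3 1 and Il4ra 3. The brightest probe set of a gene over the arrays is called its main probe set.

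IL-10 is released by macrophages and other leukocytes and binds a receptor of IL-10Rα and IL-10Rβ chains, which signals through the kinases JAK1 and TYK2 to STAT3. STAT3 then drives genes that restrain the production of cytokines and chemokines. Mice that lack IL-10 can develop colitis, and how severe it becomes depends on the strain. SOCS3 restrains signalling by the IL-6 receptor, which also uses STAT3, and it is induced by many cytokines and microbial products besides IL-10.

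Macrophages grown from the bone marrow of male mice gave RNA that was measured on 24 Affymetrix arrays, with 3 arrays in each of 8 groups of 4 strains under 2 conditions. CB-R1 (C3Bir.Cg-Il10tm1Cgn Cdcs1) had the genetic background of C3Bir and, over a long stretch of chromosome 3, the B6 form, including Cdcs1, a colitis susceptibility locus, and is described as resistant. C3Bir (C3H/HeJBir-Il10tm1Cgn) is the colitis-susceptible strain, BC-R3 (B6.Cg-Il10tm1Cgn Cdcs1) carried the Cdcs1 region of C3Bir on the B6 background, and B6 (C57BL/6J-Il10tm1Cgn) is the colitis-resistant strain. Cells grew for 6 days. Arrays labelled flagellin hold cells given CBir1 flagellin, the filament protein of a commensal gut bacterium, at 1 µg/mL for 4 h, and the others hold unstimulated cells. Every group carried the targeted, inactivated allele Il10tm1Cgn, and no strain with an intact Il10 was compared. Cells came from 3 mice per genotype and 3 wells were pooled per RNA sample. The labels used here give no age, name the strains as congenic lines without breeding details, and do not tie an array number to a mouse, so the spread behind each p-value is that of arrays and may be technical.

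Differences are log2 values of the first group minus the second, given with a standard error (±) from 1 limma model of all arrays. A difference was called where its Benjamini-Hochberg adjusted p over all 45033 probe sets was under 0.05. The number of arrays limits the precision, and levels of different probe sets are not compared with each other. In bulk RNA, fewer cells that express a gene and less RNA per cell cannot be told apart.

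Some arrays stood apart from the others of their group. In B6 and C3Bir, unstimulated arrays 2 and 3 had a mean log2 value of 16 cytokine, chemokine and effector genes that IL-10 represses in macrophages of 9.39 to 11.32. That mean was 7.46 to 8.75 on the 12 arrays labelled flagellin and 7.14 to 9.13 on the other 8 unstimulated arrays. The 4 arrays at 9.39 to 11.32 thus carried more inflammatory transcript than any other array, and they are called the 4 high arrays. Array 1 of unstimulated B6 (9.03) and array 1 of unstimulated BC-R3 (9.13) also lay above every array labelled flagellin. They are not counted among the 4 high arrays. The BC-R3 array was above the other arrays of its group, while the B6 array was the lowest of its group. Whether labels of arrays were exchanged was not tested, and every difference between flagellin and unstimulated arrays takes the labels as they stand. Fits without the 4 high arrays hold 1 unstimulated array each of B6 and C3Bir, which is assumed to vary like the arrays of the other groups. The 4 high arrays were set apart with these data in view, stood out by the mean of the 16 genes and held the highest Il10 and Socs3 values. Such fits are therefore no independent test of the 16 genes, Il10 or Socs3. The 8 macrophage markers averaged 11.99 to 12.58 over the arrays. Neutrophil markers were also bright, with a mean of 7 genes of 11.11 to 12.87 that was highest on the CB-R1 arrays (12.65 to 12.87), and 6 stromal markers averaged 7.74 to 9.87. Dendritic cell markers averaged 7.08 to 7.73 over 5 genes, B cell markers 6.12 to 6.52, and T and NK cell markers 6.35 to 6.66, around the array medians of 6.55 to 6.64.

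The Il10 probe set (1450330_at, chromosome 1) was dim on most arrays and clearly above the array medians on few. The position of its probes relative to the targeted part of the gene was not looked at, so its signal checks nothing about the deficiency. The log2 value in CB-R1 was 6.74, 6.72 and 7.03 on arrays labelled flagellin, against 6.81, 6.76 and 6.63 on unstimulated arrays. In C3Bir it was 6.78, 6.51 and 6.36 with flagellin and 6.59, 7.44 and 7.25 without. These groups overlapped within each strain, and the upper C3Bir values were those of 2 of the 4 high arrays. In BC-R3 the log2 values were 7.25, 6.996 and 6.995 with flagellin, against 7.001, 6.63 and 6.78 unstimulated. In B6 they were 7.07, 6.91 and 6.72 with flagellin and 7.16, 8.70 and 8.41 unstimulated. The B6 groups did not overlap, although unstimulated array 1 lay only just above the flagellin arrays. Together the 4 high arrays ranged from 7.25 to 8.70, against 6.59 to 7.16 on the other 8 unstimulated arrays and 6.36 to 7.25 on the 12 flagellin arrays.

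**Figure D1:**
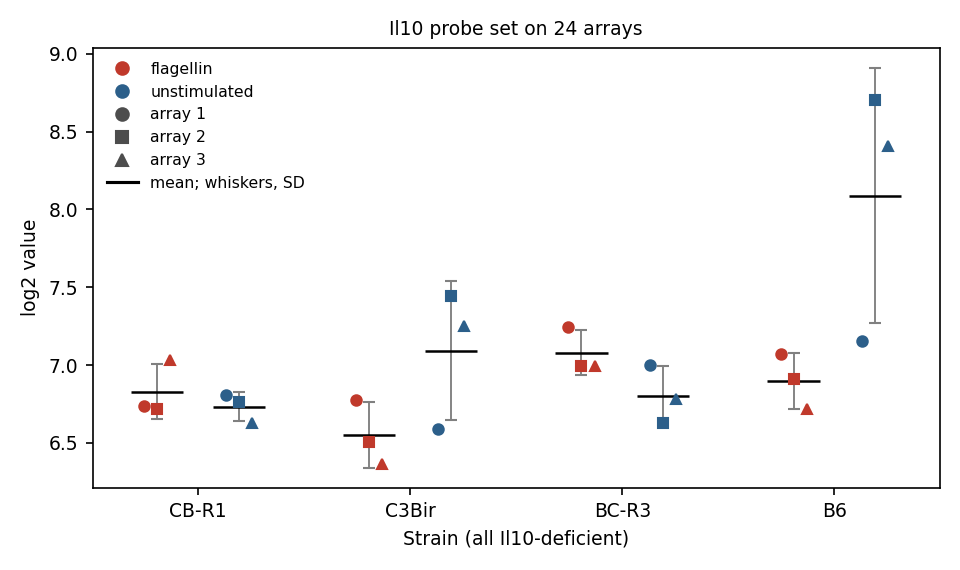
Log2 value of the Il10 probe set on each array by strain, with flagellin (red) left of unstimulated (blue); marker shape gives the array number, the black line the mean and whiskers the SD of 3 arrays. Unstimulated B6 arrays 2 and 3 stand at 8.70 and 8.41, and the highest flagellin array is at 7.25.

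Ordered by mean, Il10 was highest in unstimulated B6 at 8.09 ± 0.82 (SD, n = 3, as for the values that follow). It followed in unstimulated C3Bir at 7.09 ± 0.45, flagellin BC-R3 at 7.08 ± 0.14 and flagellin B6 at 6.90 ± 0.18. The lower places were held by flagellin CB-R1 at 6.83 ± 0.17, unstimulated BC-R3 at 6.80 ± 0.19, unstimulated CB-R1 at 6.73 ± 0.09 and flagellin C3Bir at 6.55 ± 0.21. The arrays of all 7 neighbouring pairs in this order overlapped, and 5 of the 7 pairs differed by less than the larger SD of the pair. The places below the first are therefore not resolved by these arrays, and the groups of the first pair are compared below.

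Socs3 (chromosome 11) varied more than any other gene described here. Its main probe set 1455899_x_at spanned log2 6.42 to 11.61, a 5.20 range, and its SD over the arrays was at the 99.9th percentile of all probe sets. The CB-R1 values were 7.67, 7.18 and 7.98 with flagellin, against 6.91, 6.42 and 7.17 unstimulated. In C3Bir they were 7.88, 7.78 and 7.68 with flagellin, against 6.97, 10.70 and 10.43 unstimulated. The flagellin arrays of C3Bir were within 0.20 of each other in log2, while the unstimulated ones lay on both sides of them. In BC-R3 the values were 9.13, 8.68 and 9.63 with flagellin, against 10.39, 6.65 and 6.49 unstimulated. In B6 they were 10.19, 8.86 and 8.69 with flagellin, against 10.15, 11.61 and 11.58 unstimulated. Unstimulated array 1 stood apart in these 3 strains, as the high array of BC-R3 and as the low one of C3Bir and B6. The other Socs3 probe sets, 1456212_x_at and 1416576_at, showed the same arrays as high and low and spanned 6.31 to 11.46 and 6.998 to 10.93. The suffix _x_at marks probe sets whose probes may bind other transcripts as well, and 1416576_at has no such mark.

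**Figure D2:**
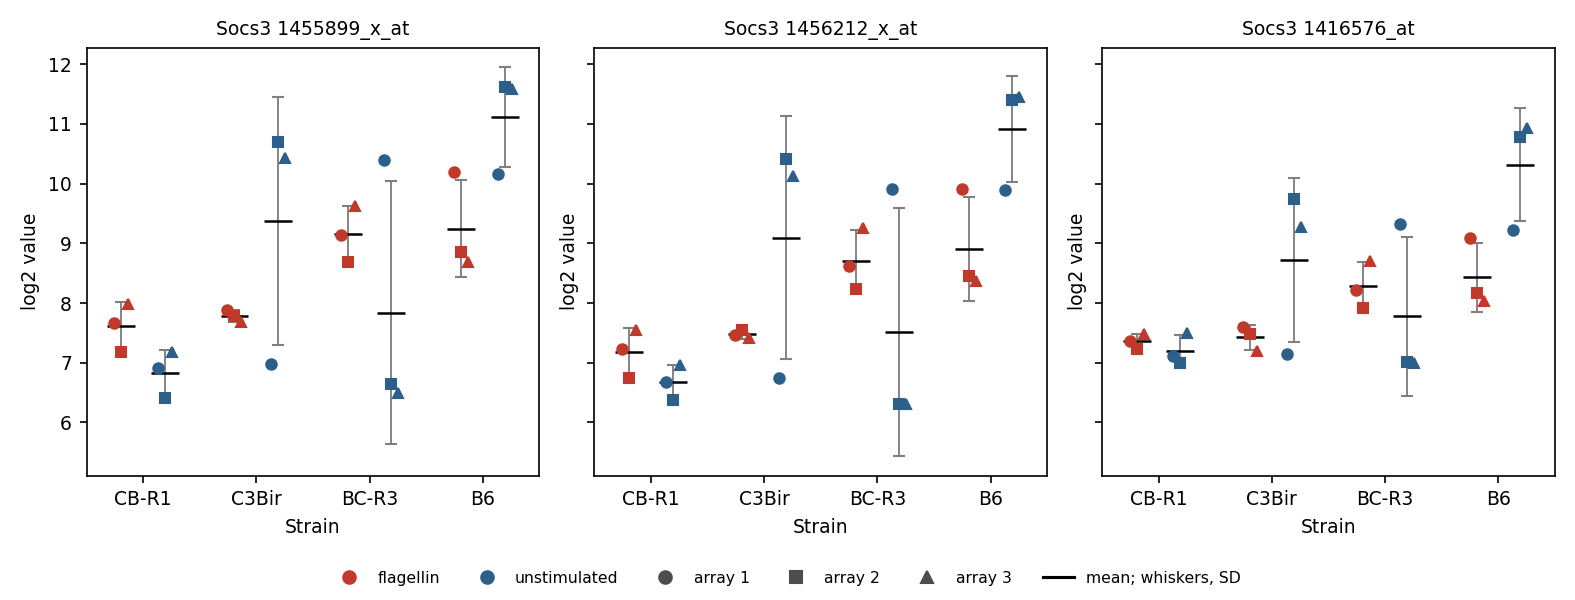
Log2 value of the 3 Socs3 probe sets on each array by strain, with flagellin (red) left of unstimulated (blue); marker shape gives the array number, the black line the mean and whiskers the SD of 3 arrays. With flagellin, all 6 arrays of CB-R1 and C3Bir lie below all 6 of BC-R3 and B6, while unstimulated values spread most widely in C3Bir and BC-R3.

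Because Socs3 is a STAT3 target and the member whose RNA varied most, its promoter is shown, from a RefSeq table of GRCm38.p6 that held 4 of the 7 genes (Stat3, Socs3, Nfil3 and Il4ra). The 250 bases before the annotated start lie at chr11:117969367-117969616 on the minus strand and read as follows, with capitals for a match to TTCNNNGAA, the palindrome that STAT dimers bind.
Socs3: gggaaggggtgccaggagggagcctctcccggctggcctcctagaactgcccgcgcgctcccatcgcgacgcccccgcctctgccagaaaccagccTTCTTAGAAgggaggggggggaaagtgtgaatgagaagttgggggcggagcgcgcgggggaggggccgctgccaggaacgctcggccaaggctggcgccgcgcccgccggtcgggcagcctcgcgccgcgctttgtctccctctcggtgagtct
The motif reads the same on both strands, and its only match began 154 bases before the start. It occurred in 2306 of 32851 promoters of that length, or 7.02%, and these letters were not in the same window of Stat3, Nfil3 or Il4ra. A match is a description of the sequence and says nothing about binding in these cells.

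The receptor chains varied over narrower ranges. Il10ra 1448731_at (chromosome 9), the ligand-binding chain, spanned log2 8.82 to 9.78. On unstimulated arrays it was 9.32, 9.15 and 8.86 in C3Bir, against 9.76, 9.72 and 9.78 in B6, with no overlap. Of its other probe sets, 1437808_x_at spanned 7.08 to 7.76, and 1456173_at averaged 5.32, near the arrays' lower quartiles of 5.29 to 5.42. Il10rb 1419455_at (chromosome 16), the chain shared with the receptors of IL-22 and type III interferons, was among the bright probe sets at 11.65 to 12.24. It was lowest on the 4 high arrays, at 11.65 to 11.76, against 11.90 to 12.24 on the other 8 unstimulated arrays and 11.88 to 12.12 on the flagellin arrays, with no overlap. Il10rb 1429959_at was 7.28 and 7.14 on unstimulated B6 arrays 2 and 3 and between 7.61 and 7.89 on the other 22 arrays.

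Stat3 (chromosome 11) was measured brightly by 1460700_at (10.10 to 10.68) and 1426587_a_at (9.86 to 10.65). In B6, 1460700_at was 10.20, 10.18 and 10.16 with flagellin, against 10.18, 10.68 and 10.67 unstimulated. Only the 2 high arrays of B6 stood out here. In C3Bir it was 10.30, 10.30 and 10.29 with flagellin, against 10.30, 10.24 and 10.15 unstimulated, so that the high arrays of C3Bir had no raised Stat3. CB-R1 had 10.45, 10.37 and 10.30 with flagellin, against 10.60, 10.57 and 10.36 unstimulated. BC-R3 had 10.14, 10.17 and 10.10 with flagellin, against 10.12, 10.29 and 10.27 unstimulated. The dimmer Stat3 probe sets 1459961_a_at (6.54 to 7.10) and 1424272_at (5.98 to 6.29) lay near or under the array medians.

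Nfil3 1418932_at (chromosome 13) spanned 7.43 to 8.41, and Il4ra 1423996_a_at (chromosome 7) spanned 8.63 to 9.33. The other Il4ra probe sets spanned 8.66 to 9.12 and 6.73 to 7.11. No probe set of Nfil3 or Il4ra was called in any of the 15 comparisons. The Nfil3 change with flagellin in C3Bir was 0.30 ± 0.18, and C3Bir against B6 with flagellin was 0.46 ± 0.18 (limma, unadjusted p = 0.0220, adjusted p = 0.177).

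**Figure D3:**
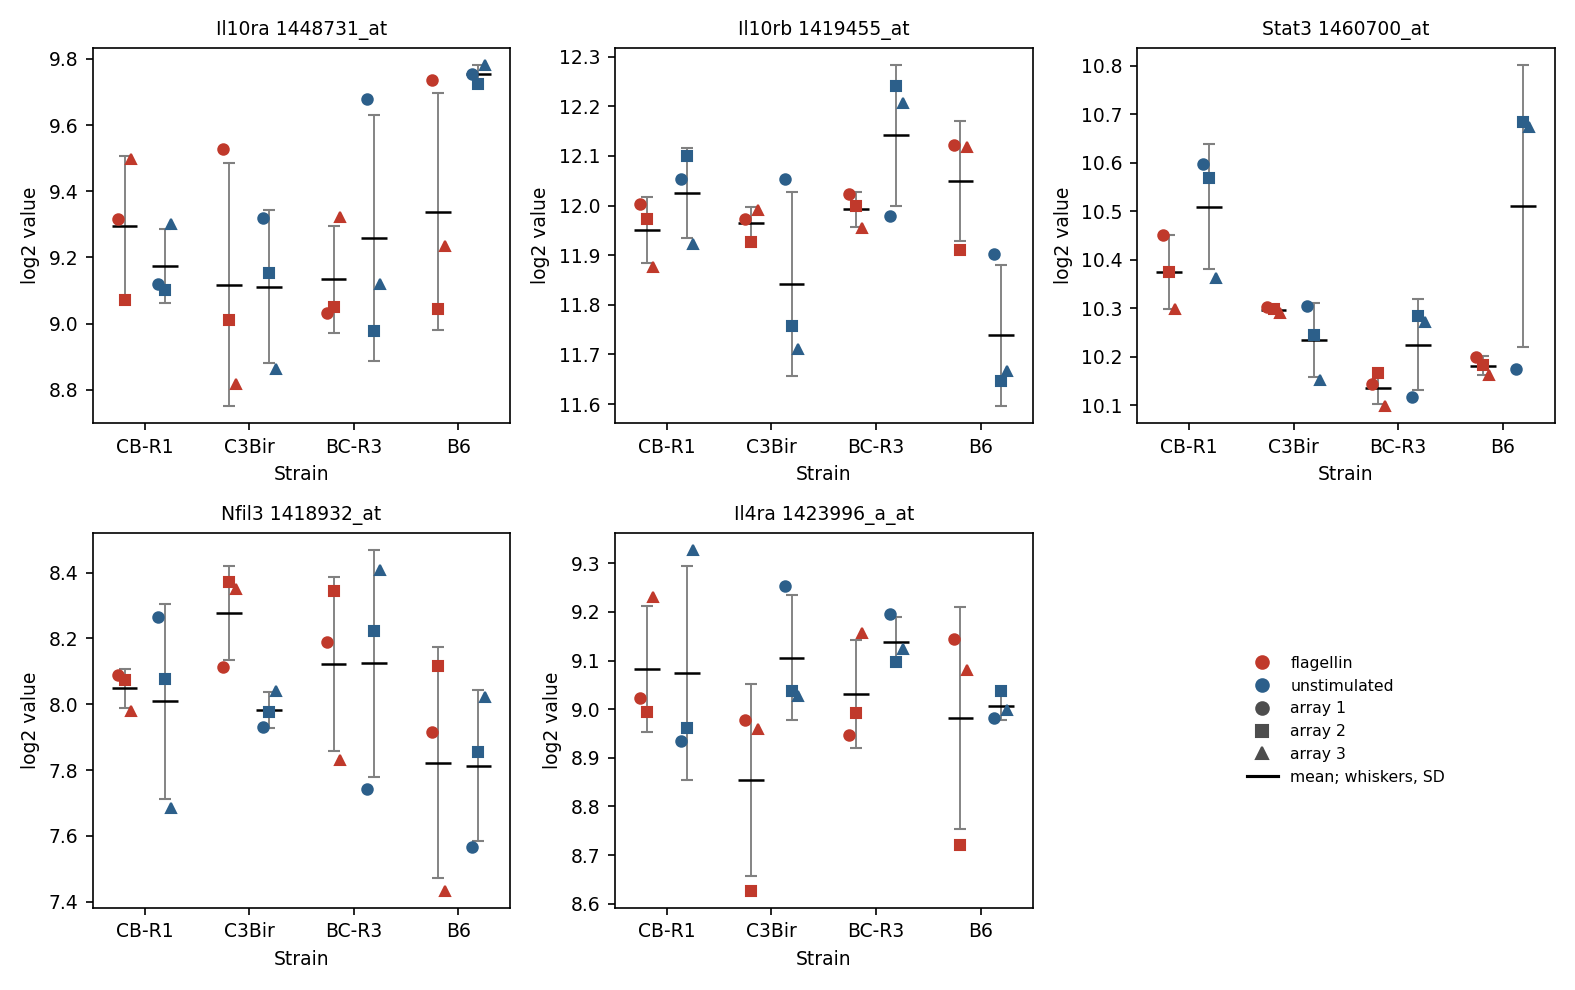
Log2 value of the main probe sets of Il10ra, Il10rb, Stat3, Nfil3 and Il4ra on each array by strain, with flagellin (red) left of unstimulated (blue); marker shape gives the array number, the black line the mean and whiskers the SD of 3 arrays. Each panel has its own axis range; Il10rb is lowest on the 4 high arrays.

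The first comparison asks how flagellin changed these genes in each strain. In B6, RNA for Il10 and Socs3 was lower on the arrays labelled flagellin than on unstimulated arrays, Stat3 was lower and Il10rb higher. Limma called 6 of the 17 probe sets there, 2 higher and 4 lower, where 17.2% of all probe sets were called. Il10 fell by 1.19 ± 0.27 (adjusted p = 0.00750), a 2.28-fold lower level. Socs3 1416576_at fell by 1.88 ± 0.59 (adjusted p = 0.0340), while the _x_at probe sets differed by -1.87 ± 0.86 and -2.01 ± 0.84 without a call (adjusted p = 0.132 and 0.0995). Stat3 fell by 0.33 ± 0.10 on 1460700_at (adjusted p = 0.0289) and by 0.47 ± 0.12 on 1426587_a_at (adjusted p = 0.0126). Il10rb rose by 0.31 ± 0.09 on 1419455_at (adjusted p = 0.0274) and by 0.47 ± 0.11 on 1429959_at (adjusted p = 0.00901). For each of these 6 probe sets, unstimulated arrays 2 and 3 were the 2 of that group furthest from the flagellin arrays. Without the 4 high arrays, 0 of the 17 were called, the Il10 difference was -0.26 ± 0.18 (adjusted p = 0.786) and that of Stat3 1460700_at was 0.01. Leaving out unstimulated array 2 or 3 of B6 alone also left 0 called, as did a fit of the 6 B6 arrays by themselves.

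In the other strains no probe set at all was called for flagellin by limma, and so none of the 17, with 0% of all probe sets called in CB-R1, 0% in C3Bir and 0% in BC-R3. At an unadjusted p under 0.05 the counts were 1 of 17 in CB-R1, 2 in C3Bir and 1 in BC-R3. The Il10 difference was 0.10 ± 0.27 in CB-R1 (95% interval -0.46 to 0.65), -0.54 ± 0.27 in C3Bir (-1.10 to 0.01) and 0.28 ± 0.27 in BC-R3 (-0.28 to 0.83). For Socs3 1455899_x_at it was 0.78 ± 0.86 in CB-R1, -1.59 ± 0.86 in C3Bir and 1.31 ± 0.86 in BC-R3. Without unstimulated array 1 of BC-R3, C3Bir and B6, arrays that were set apart with these data in view and whose Socs3 values stood apart, that difference was -2.78 in C3Bir and 2.58 in BC-R3. The choice of those arrays bears on Socs3 itself, so these are values with no test.

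**Figure D4:**
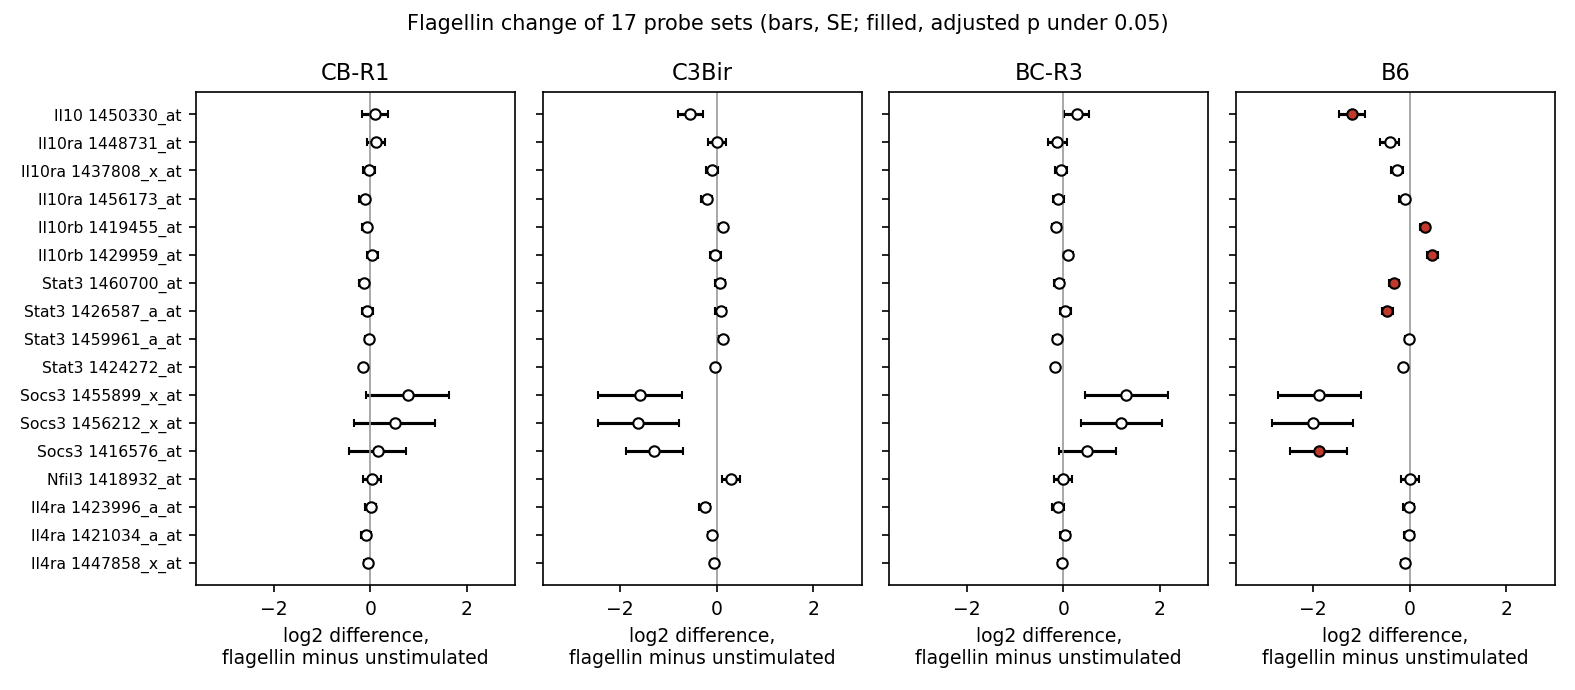
Log2 difference, flagellin minus unstimulated, of the 17 probe sets in each strain, with bars for the SE of the limma fit and filled points for adjusted p under 0.05. Calls appear in B6 only, at 6 probe sets, and the 3 Socs3 probe sets have the widest bars in every strain.

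Flagellin changes were also compared between strains. The change of Il10 was 0.28 in BC-R3 and -1.19 in B6, which differed by 1.47 ± 0.38 (adjusted p = 0.0299). That of Il10rb 1419455_at was -0.15 in BC-R3 and 0.31 in B6, which differed by -0.46 ± 0.13 (adjusted p = 0.0386). Those were 2 of 17 called, where 8.05% of all probe sets were called. Without the 4 high arrays neither was called, at 0.53 ± 0.22 for Il10 and -0.30 ± 0.14 for Il10rb (adjusted p = 0.498 and 0.520). For C3Bir against B6 limma called 0 of 17, with 3 at an unadjusted p under 0.05 and 0% of all probe sets called. For CB-R1 against C3Bir it called 0 of 17, with 0 at an unadjusted p under 0.05 and 0% of all probe sets called.

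The second question was how the strains differed within a condition. Unstimulated B6 had the highest mean Il10, and the means of C3Bir and BC-R3 were both below it. C3Bir arrays 2 and 3, at 7.44 and 7.25, still lay above B6 array 1, at 7.16. In C3Bir against B6 unstimulated, limma called 2 of 17, both lower, where 13.4% of all probe sets were called. Il10 averaged 7.09 in C3Bir and 8.09 in B6, a difference of -0.996 ± 0.27 (adjusted p = 0.0165), and Il10ra 1448731_at averaged 9.11 in C3Bir and 9.75 in B6, a difference of -0.64 ± 0.19 (adjusted p = 0.0321). The other Il10ra probe sets were not called and did not show this difference. Of these, 1437808_x_at averaged 7.59 in C3Bir and 7.63 in B6, and 1456173_at averaged 5.36 and 5.39. In BC-R3 against B6 unstimulated, 8 of 17 were called, 2 higher and 6 lower, where 26.5% of all probe sets were called. Il10 averaged 6.80 in BC-R3 and 8.09 in B6, a difference of -1.29 ± 0.27 (adjusted p = 0.00249). The Socs3 probe sets differed by -3.28 ± 0.86, -3.41 ± 0.84 and -2.53 ± 0.59 (adjusted p = 0.00959, 0.00662 and 0.00471), although their arrays overlapped through unstimulated array 1. Stat3 differed by -0.29 ± 0.10 and -0.37 ± 0.12 on its bright probe sets, and Il10rb by 0.40 ± 0.09 and 0.33 ± 0.11. These comparisons and the flagellin change in B6 share the 3 unstimulated B6 arrays. Without the 4 high arrays, 0 of 17 were called in either comparison, where 0.995% of all probe sets were called in C3Bir against B6 and 0.00666% in BC-R3 against B6. The Socs3 differences stayed large there, and their errors and that of Il10ra 1448731_at were wider than with all arrays. The Il10 differences were smaller than with all arrays, and their errors were narrower. In BC-R3 against B6, Socs3 differed by -2.31 ± 1.00, -2.38 ± 0.96 and -1.45 ± 0.63 on its 3 probe sets and Il10 by -0.35 ± 0.18. In C3Bir against B6, Il10ra 1448731_at differed by -0.43 ± 0.35, Il10 by -0.57 ± 0.22 and Socs3 1455899_x_at by -3.18 ± 1.22.

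CB-R1 against C3Bir unstimulated gave 0 of 17 by limma, with 6 at an unadjusted p under 0.05, where 0.586% of all probe sets were called. Socs3 1455899_x_at averaged 6.84 in CB-R1 and 9.37 in C3Bir, a difference of -2.53 ± 0.86 (adjusted p = 0.155). With flagellin, limma called 0 of 17 in all 3 strain comparisons. The share of all probe sets called was 5.68% in C3Bir against B6, 0.0222% in BC-R3 against B6 and 0.0555% in CB-R1 against C3Bir. The counts at an unadjusted p under 0.05 were 1, 0 and 0 of 17.

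The balanced design allowed the C3Bir background (CB-R1 and C3Bir) to be set against the B6 background (BC-R3 and B6). Socs3 and Il10 were lower on the C3Bir background, and limma called these 4 of 17 probe sets, all lower, where 22.4% of all probe sets were called. The median of the 17 differences was 0.01, as was the median of all probe sets. Socs3 1455899_x_at averaged 7.90 on the C3Bir background and 9.34 on the B6 background, a difference of -1.44 ± 0.43 (adjusted p = 0.0188) and a 2.71-fold lower level. The other Socs3 probe sets differed by -1.41 ± 0.42 and -1.03 ± 0.29 (adjusted p = 0.0185 and 0.0145). Il10 averaged 6.80 on the C3Bir background and 7.22 on the B6 background, a difference of -0.42 ± 0.13 (adjusted p = 0.0284). That call was lost in 8 of the 24 fits that left out 1 array, and the 3 Socs3 calls in none of them. Without the 4 high arrays, Socs3 1455899_x_at differed by -1.80 and Il10 by -0.31. Stat3 was higher there by 0.19 on 1460700_at and 0.18 on 1426587_a_at. The choice of the 4 high arrays bears on Socs3 and Il10 themselves, so these are values with no test.

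The Socs3 difference was also measured within each condition, a split chosen after the data had been seen. On the 12 flagellin arrays, Socs3 1455899_x_at ranged from 7.18 to 7.98 on the C3Bir background and from 8.68 to 10.19 on the B6 background. These ranges did not overlap, and the difference was -1.50 ± 0.24 (adjusted p = 0.00101). The other Socs3 probe sets likewise did not overlap, with differences of -1.48 ± 0.25 and -0.96 ± 0.18 (adjusted p = 0.00166 and 0.00251). In this fit of 12 arrays limma called 5 of 17 probe sets, where 12.7% of all probe sets were called. The others were Il10, at -0.30 ± 0.09 (adjusted p = 0.0476), and Stat3 1460700_at, the only one higher, at 0.18 ± 0.04 (adjusted p = 0.0164). That Stat3 probe set was 10.29 to 10.45 on the C3Bir background and 10.10 to 10.20 on the B6 background, with no overlap. The other bright Stat3 probe set, 1426587_a_at, was not called, at 0.20 ± 0.06 (adjusted p = 0.0630), and its arrays overlapped. The dim ones differed by 0.07 and 0.02, and on unstimulated arrays 1460700_at differed by 0.0037. On the 12 unstimulated arrays limma called 0 of 17, where 11.0% of all probe sets were called. An unadjusted p under 0.05 was found for 2 of the 17, and the like share of all probe sets is not given here. Socs3 1455899_x_at there ranged from 6.42 to 10.70 on the C3Bir background and from 6.49 to 11.61 on the B6 background, a difference of -1.38 ± 0.77 (adjusted p = 0.312). On the flagellin arrays alone, the mean of dendritic cell markers also differed between the backgrounds, while the means of neutrophil and stromal markers overlapped. On flagellin arrays the mean of the 5 dendritic cell markers was 7.47 to 7.54 in CB-R1 and 7.43 to 7.59 in C3Bir, against 7.19 to 7.21 in BC-R3 and 7.09 to 7.31 in B6, with no overlap between backgrounds. The mean of the 7 neutrophil markers there was 12.70 to 12.87 in CB-R1 and 11.65 to 12.56 in C3Bir, against 11.73 to 11.84 in BC-R3 and 11.15 to 12.04 in B6, so that the C3Bir arrays overlapped both groups of the B6 background. The mean of the 6 stromal markers there was 9.18 to 9.44 in CB-R1 and 7.97 to 8.59 in C3Bir. It was 8.06 to 9.14 in BC-R3 and 7.74 to 9.51 in B6. On unstimulated arrays the dendritic cell mean overlapped between the backgrounds. It was 7.40 to 7.49 in CB-R1 and 7.45 to 7.73 in C3Bir. In BC-R3 it was 7.08 to 7.17, and in B6 7.22 to 7.54. Among the dendritic cell markers, Itgax had the widest span over all arrays, 8.67 to 10.87. Its mean was 9.62, while Flt3, Zbtb46, Ccr7 and Siglech averaged 7.21, 7.08, 6.28 and 6.72. No dendritic cell, neutrophil or stromal marker was under the arrays' lower quartiles, and their part in these results was not tested.

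The Cdcs1 allele was compared by setting C3Bir and BC-R3, which carry its C3Bir form, against B6 and CB-R1, which carry its B6 form. Limma called 0 of 17, with 6 at an unadjusted p under 0.05, where 1.32% of all probe sets were called. Stat3 1460700_at averaged 10.22 with the C3Bir form and 10.39 with the B6 form, a difference of -0.17 ± 0.05 (adjusted p = 0.0840). Il10 differed by -0.26 ± 0.13 and Socs3 1455899_x_at by -0.17 ± 0.43 (adjusted p = 0.357 and 0.899). Without unstimulated array 1 of BC-R3, C3Bir and B6, 7 of 17 were called, where 9.20% of all probe sets were called. Those arrays were set apart with these data in view, Socs3 included, so that count is no test of the allele.

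Other genes of the pathway were described by list, each gene through its main probe set. Among 6 measured receptor kinases and STATs, 1 rose and 3 fell with flagellin in B6, where 17.2% of all probe sets were called, with a list median of -0.33 against -0.03 over all probe sets. The kinase genes Jak2 and Tyk2 fell by 1.35 ± 0.36 and 0.61 ± 0.14, Stat5a fell by 1.12 ± 0.31, and Stat6, which the IL-4 receptor activates, rose by 0.28 ± 0.08. Of 8 genes that restrain STAT signalling, 1 rose and 3 fell, with a median of -0.30. Socs1, an inhibitor of JAK kinases, fell by 1.85 ± 0.33, the related Cish by 0.67 ± 0.15 and the phosphatase gene Ptpn2 by 0.57 ± 0.15, while Pias3, which encodes an inhibitor of STAT3, rose by 0.51 ± 0.13. Of 6 other receptor genes that signal to STAT3, 2 rose, Il6ra by 1.49 ± 0.38 and Il6st, the shared chain gp130, by 0.54 ± 0.14. In none of these 3 lists was a gene called for flagellin in B6 without the 4 high arrays.

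Genes that IL-10 represses in macrophages moved furthest. With flagellin in B6, 11 of 16 fell and 0 rose, with a median of -2.10, where 17.2% of all probe sets were called. The cytokine gene Il6 fell by 4.87 ± 0.99 and Il12b, for a subunit of IL-12 and IL-23, fell by 4.08 ± 0.95. The chemokine gene Cxcl10 fell by 3.51 ± 0.84 and Ccl5 fell by 2.96 ± 0.74. Without the 4 high arrays the median was -0.55. Those arrays stood out by the mean of these same 16 genes, so that median is no test of them. In unstimulated BC-R3 against B6, 15 of 16 were lower and 0 higher (median -2.71), where 26.5% of all probe sets were called. In unstimulated C3Bir against B6, 7 were lower and 0 higher (median -1.58), where 13.4% of all probe sets were called. Without the 4 high arrays the median was -0.71 in BC-R3 and still -1.41 in C3Bir, which for the same reason are values with no test. On the C3Bir background against the B6 background 6 of 16 were lower and 0 higher, where 22.4% of all probe sets were called. The list median was -0.96, against 0.01 over all probe sets. The chemokine genes Cxcl10 and Ccl3 differed by -2.13 ± 0.42 and -1.90 ± 0.29. These 16 genes, Socs3 and Il10 had their highest values on the same unstimulated B6 arrays, and the part of that in the differences above was not tested.

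**Figure D5:**
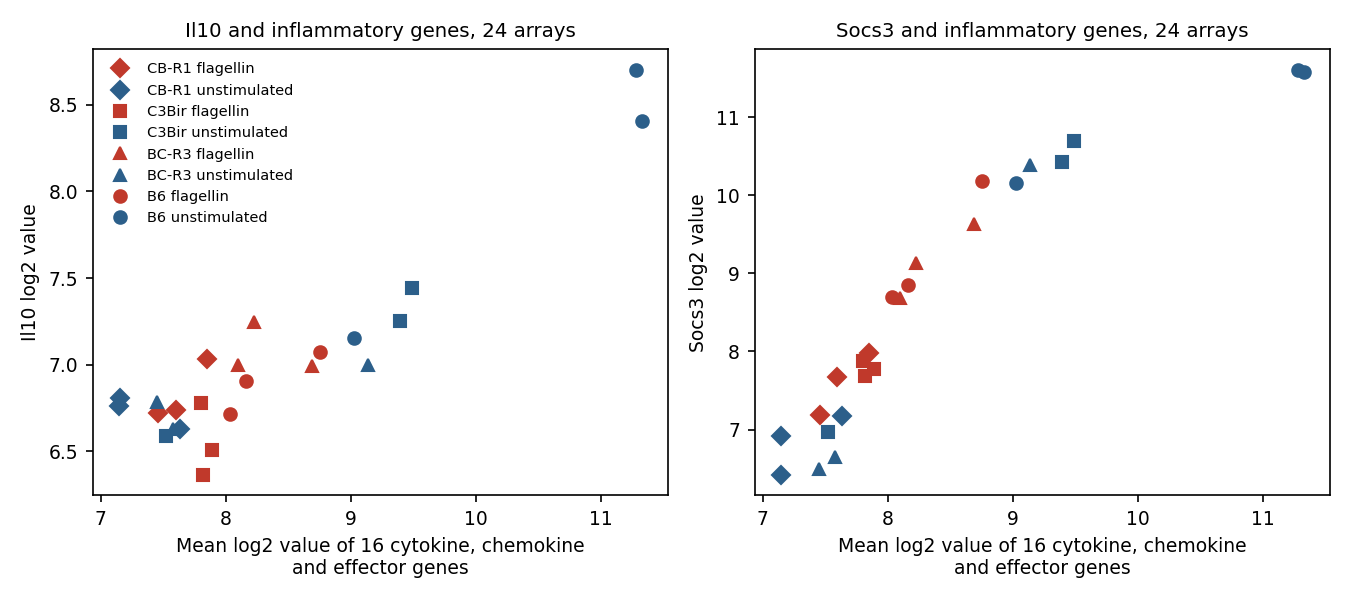
Il10 (left) and Socs3 1455899_x_at (right) log2 values against the mean log2 value of the 16 cytokine, chemokine and effector genes, 1 point per array, with shapes for strain and colours for flagellin (red) or unstimulated (blue). Unstimulated B6 arrays 2 and 3 are furthest right and highest in both panels, and Socs3 spans 6.42 to 11.61 along the whole axis while Il10 stays under 7.25 on all flagellin arrays.

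For genes that IL-10 induces in macrophages, limma called 0 of 14 with flagellin in B6, where 17.2% of all probe sets were called. The list median was -0.08, against -0.03 over all probe sets. An unadjusted p under 0.05 was found for 4 of the 14 and for 15271 of all 45033 probe sets. Between backgrounds 3 of the 14 were higher and 4 lower on the C3Bir background, where 22.4% of all probe sets were called, with a median of -0.06, and the same counts were found without the 4 high arrays. Hmox1, the haem-degrading enzyme, averaged 11.43 on the C3Bir background and 12.63 on the B6 background, a difference of -1.20 ± 0.13. Tnfrsf1b, a TNF receptor, differed by -0.57 ± 0.10, the MAP kinase phosphatase gene Dusp1 by -0.50 ± 0.06, and Il1rn, which encodes the IL-1 receptor antagonist, by 0.46 ± 0.11. Dusp1 was also the 1 gene of this list called for the Cdcs1 allele, at 11.81 with the C3Bir form and 11.44 with the B6 form, a difference of 0.37 ± 0.06 (adjusted p = 0.00300). For the allele, 0 of the 14 were called without the 4 high arrays.

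Of 13 measured inducers and regulators of Il10 transcription, 3 were lower and 0 higher on the C3Bir background, a share near the 22.4% of all probe sets called there, with a median of -0.04. The counts were 2 lower and 0 higher without the 4 high arrays. They were the kinase genes Mapkapk2, at -0.44 ± 0.10, and Map3k8, at -0.36 ± 0.12, and the transcription factor gene Prdm1, at -0.26 ± 0.08. With flagellin in B6 only Rps6ka5, a kinase of the same pathway, was called, at -0.42 ± 0.14, and without the 4 high arrays 0 of the 13 were. Mapkapk2 is also a neighbour of Il10 on chromosome 1. Of 10 measured neighbours 1 was higher and 2 lower on the C3Bir background, namely Rassf5 at 0.24 ± 0.08, Ikbke at -0.56 ± 0.17 and Mapkapk2. Of 7 measured other ligands and receptor chains of the IL-10 family, 0 rose and 2 fell with flagellin in B6, where 17.2% of all probe sets were called, and 0 were called without the 4 high arrays. Of 4 measured IL-4 receptor partners limma called 0 there, with 1 at an unadjusted p under 0.05. On the C3Bir background the receptor chain gene Il13ra1 was lower, at -0.20 ± 0.07, and the kinase gene Jak3 higher, at 0.29 ± 0.07. Of these 4, 0 were lower and 1 higher without the 4 high arrays.

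Across the 24 arrays, the gene whose main probe set followed Il10 most closely was the chemokine gene Ccl2 (Pearson r = 0.96), of 11499 genes compared. It was followed by 1110038F14Rik, Ccl22, AA467197 and the adhesion molecule gene Vcam1, each at 0.94. On the 12 flagellin arrays the same genes had r of 0.82, 0.34, 0.57, 0.74 and 0.66. Socs3 was followed most closely by Icam1, Nfkbie and Ehd1, each at 0.98, and on the flagellin arrays these had r of 0.93, 0.94 and 0.98. Il10ra was closest to Srgap2 (0.91), Il10rb to Idh1 (0.94), Stat3 to Zyx (0.90), Nfil3 to Osm (0.87) and Il4ra to Krt42 (0.81). These correlations describe arrays that share groups and the 4 high arrays, and no test was made of them.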

How the data were processed

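RNA was measured on 24 Affymetrix arrays of bone marrow-derived macrophages. Values as deposited by the authors are on a log2 scale, 1 per probe set and array; their summary and normalization methods are not stated by the labels or the file. Per the labels, RNA was amplified with T7 RNA polymerase and biotin-labelled. Of 45037 probe sets, 4 were empty, and the 45033 others entered without further normalization or filter. No arrays held identical values, and arrays of a group correlated at 0.987 to 0.998. Symbols came from the platform annotation: 34944 probe sets had 1 symbol, 931 several and 9158 none. The main probe set of each of 18193 genes is the one with the highest mean.

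The tests used limma (version 3.58.1, under R 4.3.3): 8 group means, 16 residual degrees of freedom, eBayes (prior degrees of freedom 4.02), two-sided, Benjamini-Hochberg within each of 15 contrasts. The procedure was tested on simulated data. All 17 member probe sets are named, and in each list up to 4 called genes of largest change. Members and lists were chosen with earlier results of these data known. Some genes of the lists are not reported here. A strain's sequence variants under probes can change signal, which was not tested. Alternatives were other normalizations, a filter, 1 probe set per gene, trend and robust eBayes, the compared arrays alone, array weights, blocks by number, and left-out arrays. Fits of 12 arrays of 1 condition were added after the data had been seen.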

Additional observations from a re-analysis of the deposited data

Results flagged for a closer look

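The flagellin change of 2 probe sets differed between BC-R3 and B6 in a test of the difference itself (limma). That of Il10 1450330_at was higher in BC-R3 by 1.47 ± 0.38 (adjusted p = 0.0299), with changes of 0.28 in BC-R3 and -1.19 in B6. For Il10rb 1419455_at the difference was -0.46 ± 0.13 (adjusted p = 0.0386). With unstimulated arrays 2 and 3 of B6 and C3Bir left out, neither passed, at 0.53 and -0.30. No explanation was tested.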

How the results depend on the processing

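Counts of called probe sets among the 17 depended most on unstimulated arrays. Without unstimulated arrays 2 and 3 of B6 and C3Bir they were 0 for flagellin in B6 (6 with all arrays), 0 for C3Bir against B6 and 0 for BC-R3 against B6 unstimulated (2 and 8), and 0 for the difference of flagellin change between BC-R3 and B6 (2). In that fit 4 called differences reversed: Stat3 1460700_at for flagellin in B6 (0.0060) and for BC-R3 against B6 unstimulated (0.050), and in that strain comparison also Stat3 1426587_a_at (0.0039) and Il10rb 1429959_at (-0.067). With unstimulated array 1 left out in BC-R3, C3Bir and B6 the counts, each with the share of all probe sets called, were 4 for flagellin in C3Bir (4.17%), 3 in BC-R3 (3.22%), 7 for C3Bir against B6 unstimulated (16.6%), 3 with flagellin (8.86%), 6 for CB-R1 against C3Bir unstimulated (10.1%), 7 for the Cdcs1 allele (9.20%), and 4, 8 and 4 for the differences of flagellin change (6.07%, 25.7% and 2.69%). Those arrays were set apart with these data in view, Socs3 included. A fit of the compared arrays alone gave 0 for flagellin in B6, 1 for C3Bir against B6 and 0 for BC-R3 against B6 unstimulated, and 0 for the difference between BC-R3 and B6. Array weights gave 3 for flagellin in BC-R3 (9.35%), 7 for C3Bir against B6 unstimulated (24.1%), 1 with flagellin (9.75%), 7 for CB-R1 against C3Bir unstimulated (17.4%), 7 for the allele (13.8%), and 4 and 8 for the differences of C3Bir and of BC-R3 against B6 (10.6% and 34.3%). Probe sets above the median alone gave 5 for C3Bir against B6 unstimulated. With 1 probe set per gene, where only 7 members are tested, the counts were 3 for flagellin in B6, 4 for BC-R3 against B6 unstimulated and 2 for the background, and the 12 unstimulated arrays alone gave 0 for the background. A count given without the share of all probe sets called describes how calls depend on the fit and is no result about these genes. The cause of these shifts was not tested beyond the fewer members or arrays in a fit. Differences not called with all arrays were given no direction, so a change of their sign was not counted as a reversal.

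Leaving out each array in turn gave 0 to 7 calls for flagellin in B6, 0 to 6 for C3Bir against B6 unstimulated, 3 to 9 for BC-R3 against B6 unstimulated, 0 to 3 for CB-R1 against C3Bir unstimulated, 3 to 4 for the background, 0 to 4 for the allele, 0 to 4 for the difference of flagellin change between C3Bir and B6, 0 to 7 between BC-R3 and B6, and 0 in the other comparisons. The shares of all probe sets called in these fits are not given here, so these counts show only how far calls depend on single arrays. Same-numbered arrays had deviations correlated above 0.1 in all 3 pairs of C3Bir (0.29 to 0.45) and of CB-R1 (0.22 to 0.50), but in 1 of 3 in B6 and 1 of 3 in BC-R3 (lowest -0.44), and 8 of the 12 correlated best with their own number. Since not every pair passed, the numbers were not taken as pairs. The replicate number as a block gave 9 calls for BC-R3 against B6 unstimulated and 6 for flagellin in B6, and its random form (correlation 0.0837) gave 8 and 6. No block moved a count of calls by over 1.5 times. The 3 Socs3 background calls held in all 24 fits without 1 array. Of the other settings, the 12 unstimulated arrays alone lost them, 1 probe set per gene tested only 1455899_x_at, which was called, and the compared arrays alone give no background fit. Array number limits all of these counts, and no value here carries a measure of detection.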
